A study of Mus musculus with 24 samples.

Results

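The Hox genes were examined as a code of position in cultured smooth muscle cells from mouse carotid arteries. Members were all probes of the deposited intensity table whose platform gene symbol was Hox, a cluster letter from a to d and a paralogue number. This gave 50 of the 25697 probes, standing for 38 of the 16593 named genes of the array. The HoxA cluster on chromosome 6 had 10 of these genes, HoxB on chromosome 11 had 10, HoxC on chromosome 15 had 9 and HoxD on chromosome 2 had 9. Of the 38 genes, 8 passed a filter on low signal (a probe detected on at least 4 arrays) and were among the 7675 genes tested; the other 30 were not tested.

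Hox genes encode homeodomain transcription factors and lie in clusters in which genes at one end are used early and towards the head, and genes at the other end later and towards the tail. Genes of the same number in different clusters are paralogues, and mesenchymal cells of the adult keep a Hox pattern that records where in the body they came from. Smooth muscle of the carotid artery is derived largely from neural crest of the pharyngeal arches, where low-numbered Hox genes are used. Hox proteins bind DNA with cofactors of the TALE homeodomain class (Pbx, Meis and Pknox proteins), and Polycomb and Trithorax proteins keep the clusters silent or active.

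RNA was measured on 24 Illumina bead arrays. All cells were primary vascular smooth muscle cells of male C57bl6 mice, brought into step by serum synchronization, then given serum with PDGF-BB (a platelet growth factor) and collected in late G1/S, when DNA synthesis starts. The 5 groups were wild-type cells, cells without PMCA4 (a plasma membrane calcium pump encoded by Atp2b4), and PMCA4 knockout cells electroporated with PMCA4b DNA, with vector A or with vector B. Vector B had 4 arrays and each of the other groups had 5. All cells of the electroporated groups thus carried the knockout, and the unmodified knockout cells were not electroporated. The labels give neither the animals' ages nor how the vectors differ. They also do not say that replicates are separate cultures or mice, so each p-value measures only the spread among these arrays, possibly a technical one. The number of arrays limits the precision.

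Values are log2 intensities after normalization, and a probe was detected on an array when its deposited detection p was under 0.01. Between 9496 and 10406 probes were detected per array. One Atp2b4 probe passed the filter; its mean was 6.81 ± 0.209 in wild type, with 6.84 ± 0.181 in knockout (SD, 5 arrays each), and 6.73 in PMCA4b, detected on 4 of 5 arrays, beside 6.70 for the vector average. Neither difference passed the test (limma adjusted p = 0.881 and 0.88). No source used here places this probe relative to the deleted part of the gene or to the PMCA4b DNA, so it does not check the labels. Of 8 smooth muscle markers on the array, Acta2 and Smtn were detected on all arrays of every group, Tagln on all wild-type and knockout arrays, and Cnn1, Myh11, Myocd, Des and Lmod1 on no array. None of 7 endothelial markers was detected on any array, and of 5 leukocyte markers Ptprc, Itgam and Adgre1 were detected on none, Cd3e on 1 knockout array and Cd14 on all 24. Of 8 fibroblast markers, 3 were detected on all wild-type arrays, 7 on all knockout arrays, 4 on all PMCA4b arrays, 7 on all vector A arrays and 6 on all vector B arrays.

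The detected Hox code was anterior to middle in number, apart from Hoxa13 near the detection limit, was drawn from HoxA and HoxB alone, and was shortest in wild type. A gene was counted in a group's code where 1 of its probes was detected on every array of the group. Hoxa2, Hoxa5, Hoxb2 and Hoxb4 made up the wild-type code of 4 genes and were in the code of every group. The knockout code held 8 genes, adding Hoxa4, Hoxa7, Hoxa13 and Hoxb5 to those 4. PMCA4b cells had 6 genes, which were the 4 shared ones with Hoxa7 and Hoxa13. Vector A and vector B cells had the same 7 genes, adding Hoxa4, Hoxa7 and Hoxa13 to the shared 4.

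**Figure D1:**
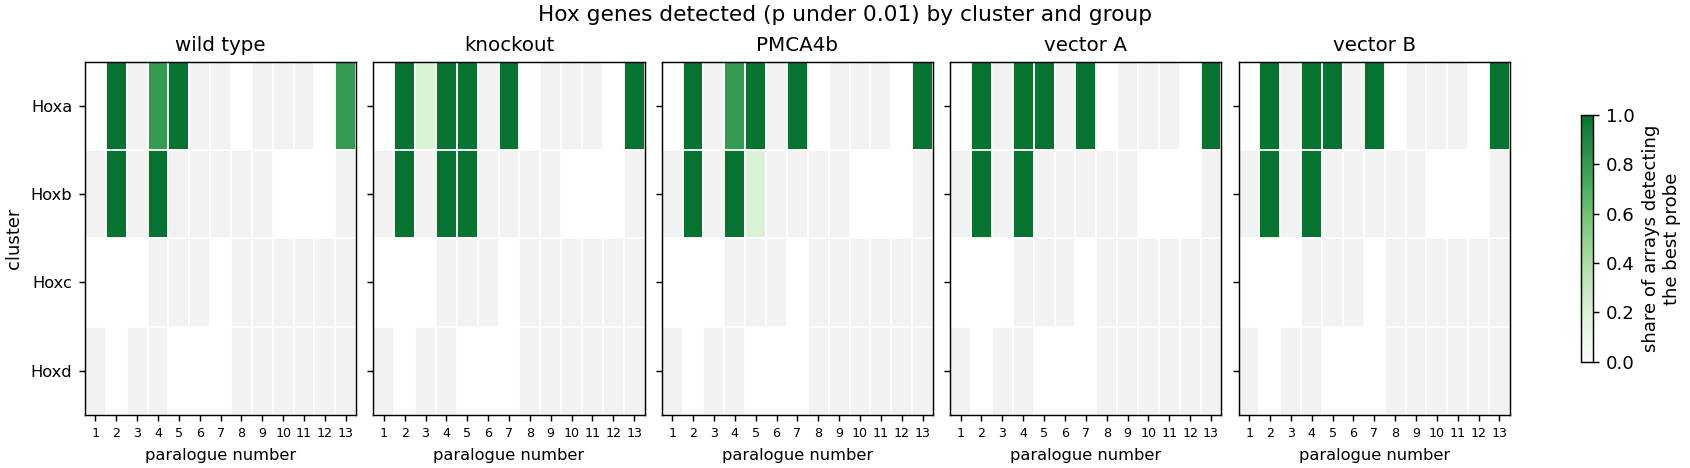
Share of arrays of each group on which each Hox gene of the array was detected, with genes in order of paralogue number within clusters A to D. Filled positions lie in clusters A and B; clusters C and D are empty in all 5 groups, and Hoxa7 is empty in wild type.

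No gene of HoxC (9 genes, 11 probes) or HoxD (9 genes, 9 probes) was detected on any of the 24 arrays. In HoxA, 6 of 10 genes were detected on at least 1 array, and in HoxB 3 of 10. Hoxa6, which lies between Hoxa5 and Hoxa7, was detected on no array; its probe had a lowest detection p of 0.132 and group means from 4.92 to 5.12. The 3 Hoxa9 probes, next to Hoxa7 on the other side, were also detected on none. A probe without signal does not show that the RNA was absent, and for Hoxa6 and most other undetected genes a single probe was available.

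The differences between the codes lay partly in genes near the detection limit. With a detection p under 0.05 in place of 0.01, or with detection on a share of at least 0.5 of a group's arrays, Hoxa4 and Hoxa13 joined the wild-type code, which then had 6 genes, and Hoxa4 joined the PMCA4b code, which then had 7. The other 3 codes kept their number of genes. Under each of these rules Hoxa7 was missing from the wild-type code alone, and Hoxb5 was in the knockout code alone.

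Hoxa7, a middle gene of the HoxA cluster that helps to pattern the trunk, separated wild type from all other groups. On the wild-type arrays its probe read 5.76, 5.50, 5.55, 5.55 and 5.78, with detection p-values from 0.0501 to 0.123. On the knockout arrays it read 8.63, 8.69, 8.62, 8.66 and 8.46. Every knockout array was above every wild-type array, and the wild-type values all lay below the lowest value that any array detected. The PMCA4b arrays read 9.39, 9.24, 9.49, 9.35 and 9.35. Vector A arrays read 9.04, 9.36, 9.21, 9.25 and 9.31, and vector B arrays 8.95, 8.97, 8.89 and 8.84. The electroporated groups thus lay above the unmodified knockout, and PMCA4b overlapped vector A.

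Hoxa7 RNA was at least 4.61-fold higher in knockout than in wild type (adjusted p = 3.74e-21 by limma, with Benjamini-Hochberg adjustment over all genes tested, as for each adjusted p that follows). Bounds of this kind set the bright group's mean against the lowest detected value of each dim array. The bound against wild type was 7.76-fold for PMCA4b, 7.09-fold for vector A and 5.68-fold for vector B, with adjusted p-values from limma of 1.82e-23, 2.72e-23 and 7.83e-22. Within the 3 sets of 8 neighbouring columns of the deposited table, the knockout minus wild type difference was 3.03, 3.10 and 2.68 on the log2 scale. Hoxa7 was thus higher in knockout in every set, the last of which held 1 array of each of these groups. These differences use wild-type readings below the detection limit, so their sizes are not lower bounds. In RNA from whole cultures, fewer cells of a type and less RNA per cell cannot be told apart.

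The sequences before Hoxa7 and its neighbours on the Hoxa5 side are shown because detection changed from gene to gene there: Hoxa5 was detected in every group, Hoxa6 in none and Hoxa7 in all but wild type. Each sequence is the 250 bases before the gene's start on the minus strand, from RefSeq, build GRCm38.p6, at chr6:52204588-52204837 for Hoxa5, chr6:52208673-52208922 for Hoxa6 and chr6:52218574-52218823 for Hoxa7. Capitals mark TTTATG, the motif of Cdx factors (homeodomain inducers of middle and posterior Hox genes), and ATTGG, the CCAAT box read on the other strand.
Hoxa5: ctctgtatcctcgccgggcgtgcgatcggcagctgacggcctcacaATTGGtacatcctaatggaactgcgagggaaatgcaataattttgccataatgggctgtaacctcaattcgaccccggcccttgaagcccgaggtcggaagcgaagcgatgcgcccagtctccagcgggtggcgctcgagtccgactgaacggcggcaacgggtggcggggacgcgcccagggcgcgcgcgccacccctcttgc
Hoxa6: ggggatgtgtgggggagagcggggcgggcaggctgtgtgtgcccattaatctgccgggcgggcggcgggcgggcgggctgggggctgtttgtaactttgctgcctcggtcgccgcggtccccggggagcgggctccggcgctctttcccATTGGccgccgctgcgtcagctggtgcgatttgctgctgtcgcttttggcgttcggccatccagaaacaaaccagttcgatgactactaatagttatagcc
Hoxa7: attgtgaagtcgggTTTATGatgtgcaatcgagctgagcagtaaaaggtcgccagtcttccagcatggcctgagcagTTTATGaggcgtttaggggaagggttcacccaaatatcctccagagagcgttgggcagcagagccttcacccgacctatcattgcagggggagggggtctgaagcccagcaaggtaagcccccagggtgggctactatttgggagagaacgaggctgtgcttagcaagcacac

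The motifs TTTATG (Cdx), TGACAG (Meis), TGATNNAT (Pbx-Hox) and CCAAT were searched on both strands, and no matches in these windows overlapped. The Hoxa7 window held TTTATG at 236 and at 173 bases before the start, and neither other window held it. Of the 32851 windows of the same length in the RefSeq table, 10.8% held TTTATG at least once and 1.02% held it at least 2 times. CCAAT was matched once in Hoxa5, 204 bases before the start, and once in Hoxa6, 101 bases before it; 33.8% of all windows held it. TGACAG (15.9% of all windows) and TGATNNAT (7.68%) matched none of the 3. The Hoxa5 window held 28 CpG, more than 92.4% of windows, and the Hoxa6 window 24, more than 88% of windows. Hoxa7 held 7, close to the median of 6. Of the 38 Hox genes, 22 had a window in the table, and TTTATG was found in 5 of them. These matches are descriptions of the letters and not of binding. Of the Cdx genes on the array, Cdx1 was detected on 1 knockout array and Cdx2 and Cdx4 on none.

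**Figure D2:**
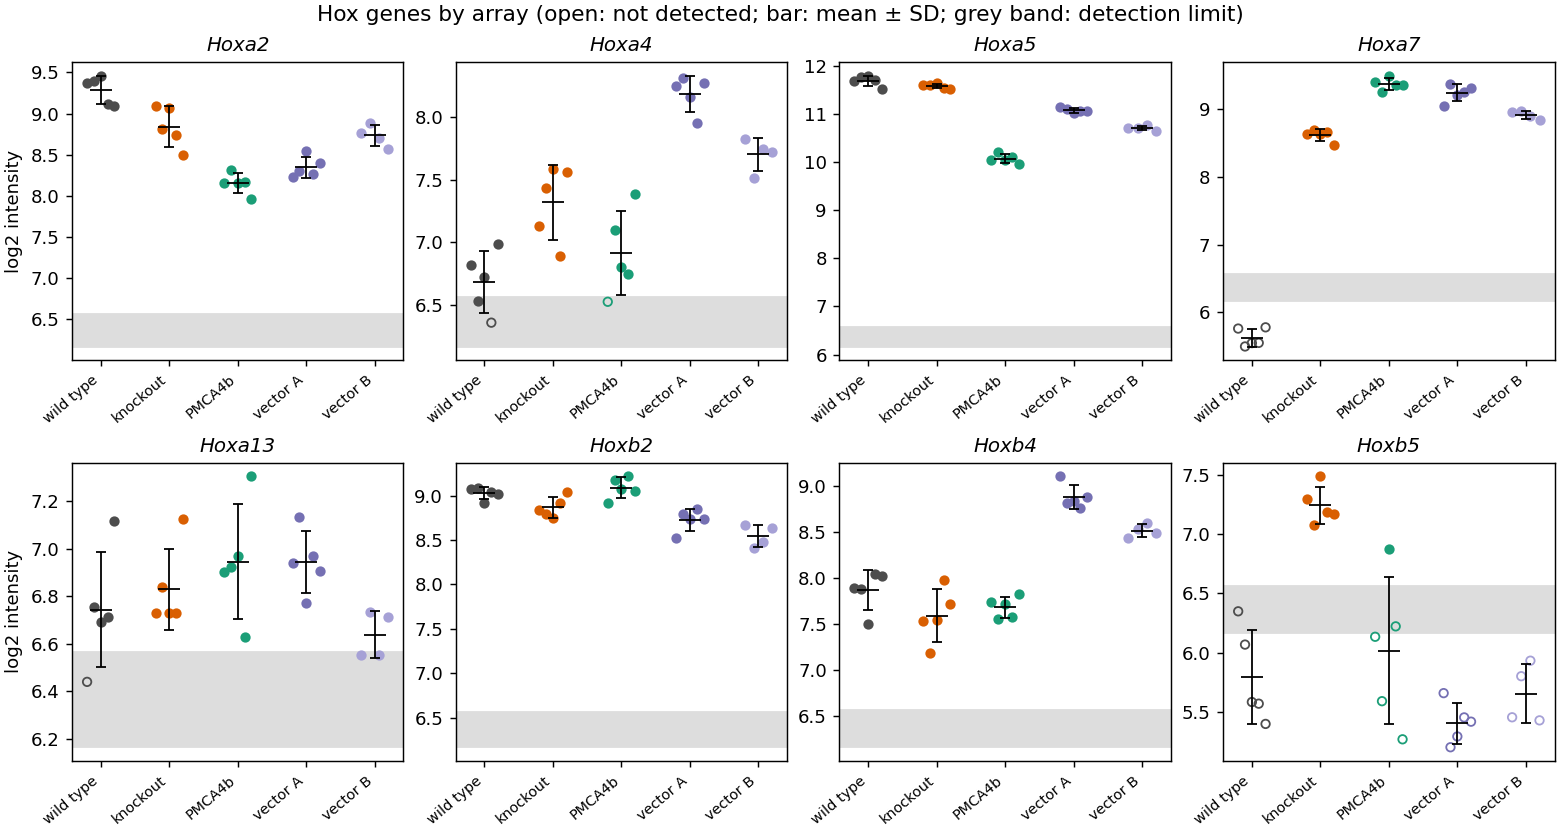
Log2 intensity of the 8 tested Hox genes on each of the 24 arrays, by group, with bars for the mean ± SD; open points are arrays on which the probe was not detected, and the grey band spans the arrays' lowest detected values. Hoxa7 lies below the band on all wild-type arrays only, and Hoxb5 lies above it on all knockout arrays only.

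Hoxb5, a HoxB gene used in the hindbrain, neural crest and lung, was the other gene detected on all knockout arrays and on no wild-type array. The knockout arrays read 7.30, 7.08, 7.49, 7.19 and 7.17, and all 5 detected it. The wild-type arrays read 6.35, 6.07, 5.58, 5.57 and 5.40 and none detected it. On the PMCA4b arrays it read 6.13, 5.59, 6.88, 6.22 and 5.27, with 1 array detecting it. All 9 vector arrays lay between 5.20 and 5.93, undetected. Knockout values did not overlap those of any other group. Hoxb5 was at least 1.79-fold higher in knockout than in wild type (limma adjusted p = 3.79e-06) and at least 1.89-fold lower in the vector groups than in knockout (limma adjusted p = 2.03e-08). It passed the filter through the knockout group, so a difference from the others was built into its selection.

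Hoxa5, a regulator of lung and neck patterning, was detected well above the limit everywhere. Wild-type arrays read 11.67, 11.76, 11.78, 11.70 and 11.52, and knockout arrays 11.60, 11.59, 11.64, 11.54 and 11.52. These groups overlapped, and the difference of -0.11 (SE 0.0512) did not pass the test (limma adjusted p = 0.0687). PMCA4b arrays read 10.03, 10.20, 10.04, 10.10 and 9.96. Vector A arrays read 11.15, 11.10, 11.02, 11.05 and 11.06, and vector B arrays 10.70, 10.70, 10.77 and 10.65. All PMCA4b arrays were lower than all arrays of every other group. The order from high to low was wild type, knockout, vector A, vector B and PMCA4b, and each step after the first passed the test, with limma adjusted p-values of 5.36e-09, 4.57e-06 and 2.6e-10.

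Hoxa4, which acts in the neck skeleton with Hoxb4, was close to the limit in wild type and in PMCA4b and highest with vector A. It read 6.82, 6.53, 6.72, 6.36 and 6.99 on the wild-type arrays, of which 4 detected it. The knockout arrays read 7.13, 7.43, 7.58, 6.89 and 7.56. One knockout array lay within the wild-type range. PMCA4b arrays read 6.52, 7.10, 6.80, 6.75 and 7.39, with 4 detecting it, and overlapped both of those groups. Vector A arrays read 8.25, 8.31, 8.16, 7.95 and 8.28, and vector B arrays 7.83, 7.52, 7.75 and 7.72. The lowest vector B value was below the highest knockout value, whereas all vector A arrays were above every array of the other groups. Neighbouring groups in the order vector A, vector B, knockout, PMCA4b differed with limma adjusted p-values of 0.0121, 0.0338 and 0.0177, and PMCA4b and wild type did not pass (0.174). The call between the vector groups was lost with the sets of neighbouring columns as a block. That between knockout and PMCA4b was lost on leaving out some single arrays.

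Its paralogue Hoxb4, known for its part in blood stem cells, had the same 2 groups on top. Vector A arrays read 9.11, 8.81, 8.84, 8.76 and 8.88, and vector B arrays 8.44, 8.54, 8.60 and 8.49. Wild-type arrays read 7.89, 7.89, 7.51, 8.04 and 8.02, knockout arrays 7.53, 7.19, 7.54, 7.98 and 7.72, and PMCA4b arrays 7.74, 7.56, 7.72, 7.58 and 7.83. All 9 vector arrays were above all 15 others, which overlapped one another. From vector B to wild type the step was 0.65 (limma adjusted p = 3.62e-05), and the steps from wild type to PMCA4b (0.141) and from PMCA4b to knockout (0.487) did not pass.

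Hoxa2, which sets the identity of the second pharyngeal arch, was highest in wild type. Its wild-type arrays read 9.38, 9.40, 9.46, 9.12 and 9.09, and its knockout arrays 9.09, 8.81, 9.07, 8.73 and 8.49. The highest knockout array lay just above the lowest wild-type array. PMCA4b arrays read 8.16, 8.31, 8.16, 8.17 and 7.96, below all wild-type and all knockout arrays. Vector A arrays read 8.23, 8.30, 8.54, 8.27 and 8.40, and vector B arrays 8.77, 8.89, 8.71 and 8.57. Knockout and vector B did not differ by the test (limma adjusted p = 0.402), nor did vector A and PMCA4b (0.0811). A further kept Hoxa2 probe put wild type highest at 8.94 and PMCA4b lowest at 7.75.

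Its paralogue Hoxb2, a hindbrain and neural crest gene, was detected on all 24 arrays, as were Hoxa2, Hoxa5 and Hoxb4. Group means ran from 8.55 ± 0.126 (SD, n = 4) with vector B to 9.09 ± 0.117 (SD, n = 5) with PMCA4b, and no PMCA4b value lay below any vector value. Wild type and PMCA4b (limma adjusted p = 0.45), knockout and wild type (0.0601) and vector A and knockout (0.0779) did not differ by the test. Hoxa13, at the tail end of its cluster and known from the limb tips and the genital tract, had 1 of 3 probes kept, with group means from 6.64 to 6.95 beside a detection limit of 6.17 to 6.57. Its other probes were detected on 2 and 0 arrays, and no neighbouring groups in its order passed the test. Its place in the code therefore rests on a single probe near the limit.

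Knockout against wild type asked what the loss of PMCA4 goes with. Of the 8 tested Hox genes 3 were higher in knockout (Hoxa7, Hoxb5 and Hoxa4, the last at least 1.55-fold, limma adjusted p = 0.000751) and 2 were lower. Hoxa2 was 1.36-fold lower (limma adjusted p = 0.000634) and Hoxb4 1.21-fold lower (limma adjusted p = 0.0377). These 5 calls stand beside 57.7% of all genes called in this comparison, 26.6% higher and 31.1% lower, so the count was near the background. The median absolute difference was 0.36 over the Hox genes and 0.23 over all genes, and the groups did not overlap for 2 of 8 Hox genes, against 39.6% of all genes. Hoxb5 counts among the 3 higher and among these 2, although its difference was built into its selection. The Hoxb4 call was lost without wild-type replicate 1, 2, 4 or 5 and without knockout replicate 1, 2 or 3, with limma adjusted p-values up to 0.153. Fibroblast markers moved with this comparison: the mean of the 7 tested markers ran from 7.61 to 7.87 on wild-type arrays and from 10.53 to 10.57 on knockout arrays, with Lum detected on no array. Of these 7 markers 6 were higher and Pdgfra was lower. Smooth muscle marker means also moved, from 10.93 to 11.26 on wild-type arrays and from 12.08 to 12.23 on knockout arrays, and Cd14 was 2.40-fold lower (limma adjusted p = 3.68e-14). The part of these markers in the Hox differences was not tested.

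Vector DNA in knockout cells went with higher Hoxb4, Hoxa4 and Hoxa7 and lower Hoxb5, Hoxa5, Hoxa2 and Hoxb2. Against the unmodified knockout, the average of both vector groups was 2.15-fold higher for Hoxb4 (limma adjusted p = 4.94e-10), 1.55-fold higher for Hoxa4 (limma adjusted p = 0.000152) and 1.38-fold higher for Hoxa7 (limma adjusted p = 2.3e-07). It was 1.61-fold lower for Hoxa5 (limma adjusted p = 1.93e-12), with smaller falls of 0.30 for Hoxa2 and 0.23 for Hoxb2 on the log2 scale (limma adjusted p = 0.00492 and 0.00215). The 3 higher and 4 lower calls of 8 compare with 74.4% of all genes called, 39.6% higher and 34.8% lower. Both vector groups lay apart from knockout for 4 of 8 Hox genes (Hoxa5, Hoxa7, Hoxb4 and Hoxb5), against 43.5% of all genes. Hoxb5 passed the filter through knockout, so its place among these 4 and among the 4 lower calls was built into its selection. The median absolute difference was 0.54 over the Hox genes and 0.35 over all genes. The mean of the 3 tested smooth muscle markers ran from 12.08 to 12.23 on knockout arrays and from 9.42 to 9.71 over the vector arrays. Tagln, 1 of the 3, was detected on no vector array, so its share of this fall uses values below the detection limit. Of the 7 tested fibroblast markers 2 were higher and 4 lower with vector, and their means ran from 9.56 to 9.91 over the vector arrays. The part of these markers in the Hox differences was not tested.

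The vector groups themselves differed. Vector B was lower than vector A for Hoxa5, Hoxa7, Hoxa4, Hoxb4, Hoxa13 and Hoxb2 and higher for Hoxa2, by 0.18 to 0.49 on the log2 scale. The 6 lower calls and 1 higher call of 8 stand beside 53.4% of all genes called in this comparison, 25.5% lower and 27.9% higher. For 6 of 8 Hox genes the vector groups did not overlap, against 46.6% of all genes. All vector A arrays lay in 1 set of 8 neighbouring columns of the deposited table and all vector B arrays in the others. With the column set as a block only 2 calls were left, Hoxa5 and Hoxa7, both lower with vector B. Without the block, the Hoxb2 call (limma adjusted p = 0.0481) was lost without vector A replicate 2, 3, 4 or 5 or vector B replicate 2 or 3, and the Hoxa13 call (limma adjusted p = 0.0358) without vector A replicate 1, 2 or 4 or vector B replicate 1 or 3, with limma adjusted p-values up to 0.176 and 0.0906.

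PMCA4b against the vector average asked what the return of PMCA4b goes with. PMCA4b cells had at least 2.04-fold less Hoxa4 RNA (limma adjusted p = 1.34e-07), 2.02-fold less Hoxb4 (limma adjusted p = 1.67e-09), 1.77-fold less Hoxa5 (limma adjusted p = 4.36e-14) and 1.31-fold less Hoxa2 (limma adjusted p = 0.000419). They had 1.37-fold more Hoxb2 (limma adjusted p = 6.15e-07) and 1.22-fold more Hoxa7 (limma adjusted p = 0.000101). For Hoxa7 the difference passed against vector B (limma adjusted p = 4.9e-06) and not against vector A (0.0766). Hoxb5 was also called higher (0.49 on the log2 scale, limma adjusted p = 0.0226), but 1 of 5 PMCA4b arrays and no vector array detected it, and without PMCA4b replicate 3 the adjusted p was 0.142 and without replicate 4 it was 0.0593. In the column set that held vector A its difference was -0.14. The 3 higher and 4 lower calls of 8 compare with 78.8% of all genes called, 38.3% higher and 40.5% lower, and the median absolute difference was 0.47 over the Hox genes and 0.43 over all genes. PMCA4b did not overlap the vector arrays for Hoxa4, Hoxa5, Hoxb2 and Hoxb4, which is 4 of 8, against 51.3% of all genes. Within the 3 column sets the Hoxa4 difference was -0.86, -0.96 and -0.80, and the Hoxb4 difference was -0.84, -0.90 and -1.05. Fibroblast marker means ran from 8.51 to 8.78 on PMCA4b arrays and from 9.56 to 9.91 over the vector arrays, with 1 of the 7 (Thy1) higher and 5 lower with PMCA4b. All 3 smooth muscle markers were higher, with means from 10.33 to 10.55 on PMCA4b arrays and from 9.42 to 9.71 over the vector arrays. Of these, Tagln was detected on no vector array and was at least 1.16-fold higher. The part of these markers was not tested.

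**Figure D3:**
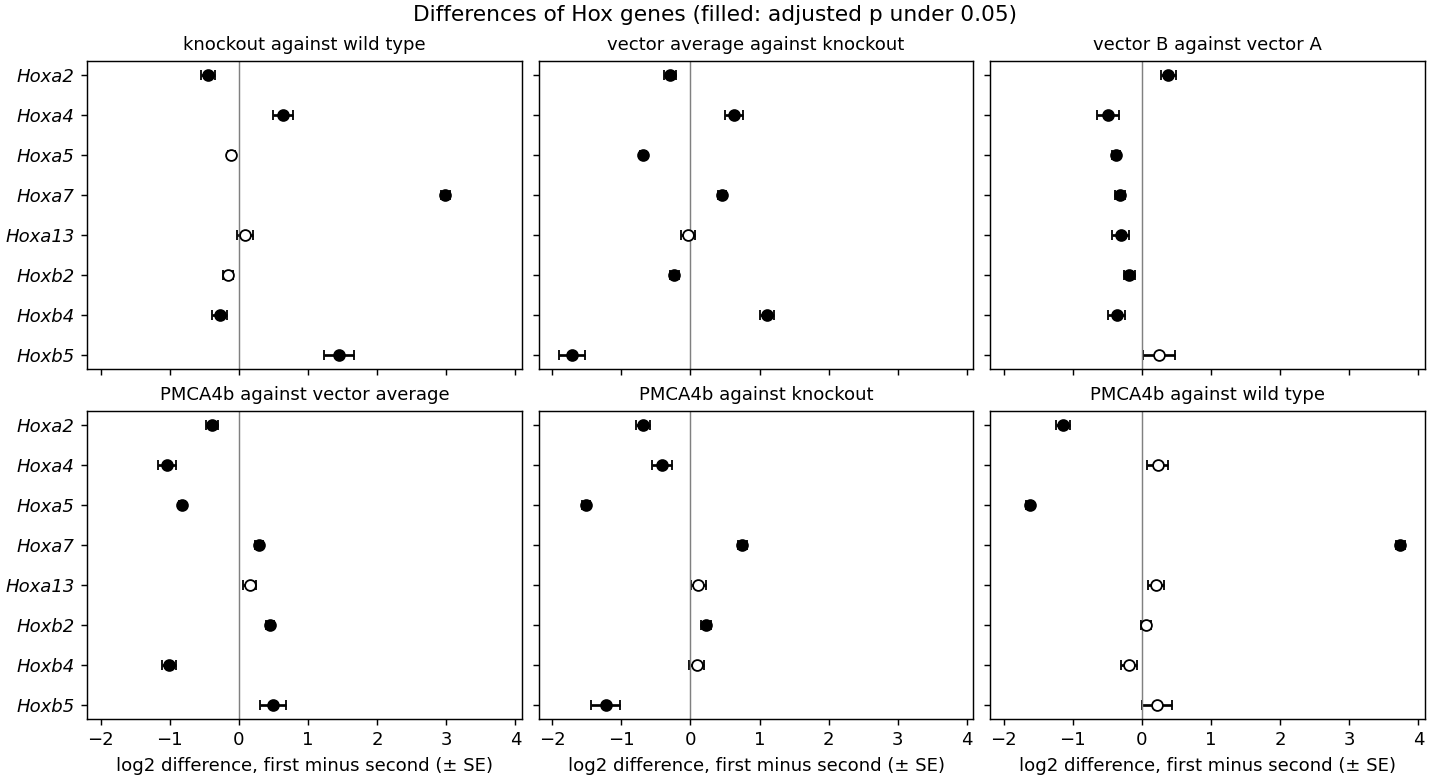
Log2 difference of each tested Hox gene in the 6 comparisons, with bars for the standard error from limma; filled points passed an adjusted p under 0.05. Hoxa7 is about 3 or more above wild type in knockout and PMCA4b, and Hoxa4 and Hoxb4 are about 1 lower in PMCA4b than in the vector average.

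Set beside the unmodified knockout and beside wild type, PMCA4b cells did not have the wild-type code. Against knockout 2 Hox genes were higher and 4 lower, with 69.3% of all genes called, 35.9% higher and 33.3% lower. The arrays did not overlap for 4 of 8 Hox genes, against 52.5% of all genes. Hoxb5, counted among the 4 lower and among these 4, passed the filter through knockout, so its difference was built into its selection. Hoxa5 was 2.85-fold lower (limma adjusted p = 7.38e-18), Hoxa2 1.61-fold lower (limma adjusted p = 2.39e-06) and Hoxb5 at least 1.61-fold lower (limma adjusted p = 2.27e-05). Hoxa4 was lower by 0.41 on the log2 scale (limma adjusted p = 0.0177), a call lost without knockout replicate 3, without knockout replicate 5 or without PMCA4b replicate 1. Hoxa7 was 1.68-fold higher (limma adjusted p = 6.52e-10) and Hoxb2 higher by 0.22 (limma adjusted p = 0.00827). Against wild type 1 Hox gene was higher and 2 were lower, with 69.1% of all genes called, 34% higher and 35.1% lower. They were Hoxa7 as above, Hoxa5 3.08-fold lower (limma adjusted p = 1.38e-18) and Hoxa2 2.20-fold lower (limma adjusted p = 6.85e-10). For these 3 genes the groups did not overlap, against 53% of all genes. The median absolute difference against wild type was 0.23 over the Hox genes and 0.33 over all genes. The differences for Hoxa4, Hoxb4 and Hoxb5 against wild type were 0.23, -0.19 and 0.23 and did not pass (limma adjusted p = 0.174, 0.141 and 0.364). These comparisons share the PMCA4b arrays, and those with wild type or knockout share their arrays with the comparisons above.

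Some Hox genes that did not pass the filter were highest in a single group. Hoxb7, beside Hoxb6 in its cluster, read 5.91 ± 0.211 (SD, n = 5) in knockout against 4.79 to 4.85 for the other group means, and its lowest detection p was 0.0226. Hoxa3, which patterns the third pharyngeal arch and the carotid body, had a probe at 6.22 ± 0.257 (SD, n = 5) in knockout, detected on 1 array, against 5.27 to 5.64 elsewhere. Its other probe did not repeat this: it was highest in vector A, at 5.48, and detected on no array. Hoxc6 read 5.50 ± 0.205 (SD, n = 5) in PMCA4b against 4.89 to 5.08, with no array detecting it. Hoxb7 and the Hoxa3 probe that was highest in knockout lay close to the limit in that group, and Hoxc6 lay below the limit in every group. These values are near or below background and were outside the main test. They were tested only in the fit with no filter on detection, given below.

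Other homeobox and T-box genes that mark position, chiefly of the head and limbs, also differed between the groups. Of 39 on the array 26 were detected on no array and 9 were tested. In knockout 2 of the 9 were higher and 6 lower than in wild type, where 57.7% of all genes were called. Of these calls, 3 (Tbx3, Otx2 and En1) were of genes that passed the filter through 1 group alone, so a difference was built into their selection. Dlx1, a gene of the pharyngeal arches and forebrain, fell from 10.65 ± 0.0690 (SD, n = 5) to 7.58 ± 0.0864 (SD, n = 5), an 8.37-fold difference (limma adjusted p = 5.85e-22). Its neighbour and partner Dlx2 was 2.32-fold lower (limma adjusted p = 1.32e-09).

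Several of these genes were detected in 1 group alone. Tbx3, a limb and heart T-box gene, read 8.01, 7.80, 7.67, 7.45 and 8.19 in wild type and was undetected on the 19 other arrays, at least 2.66-fold lower in knockout (limma adjusted p = 9.34e-15). Otx2, a forebrain gene that marks territory in front of the Hox domain, read 6.82, 6.85, 6.67, 6.75 and 6.29 in wild type, with 4 arrays detecting it and none elsewhere, at least 1.20-fold lower in knockout (limma adjusted p = 3.25e-14). En1, a midbrain and limb gene, read from 6.78 to 7.16 on the 5 knockout arrays and was undetected elsewhere, at least 1.48-fold higher than in wild type (limma adjusted p = 1.33e-10). Values did not overlap between the named group and any other group for each of these genes, which their selection through that group largely built in.

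**Figure D4:**
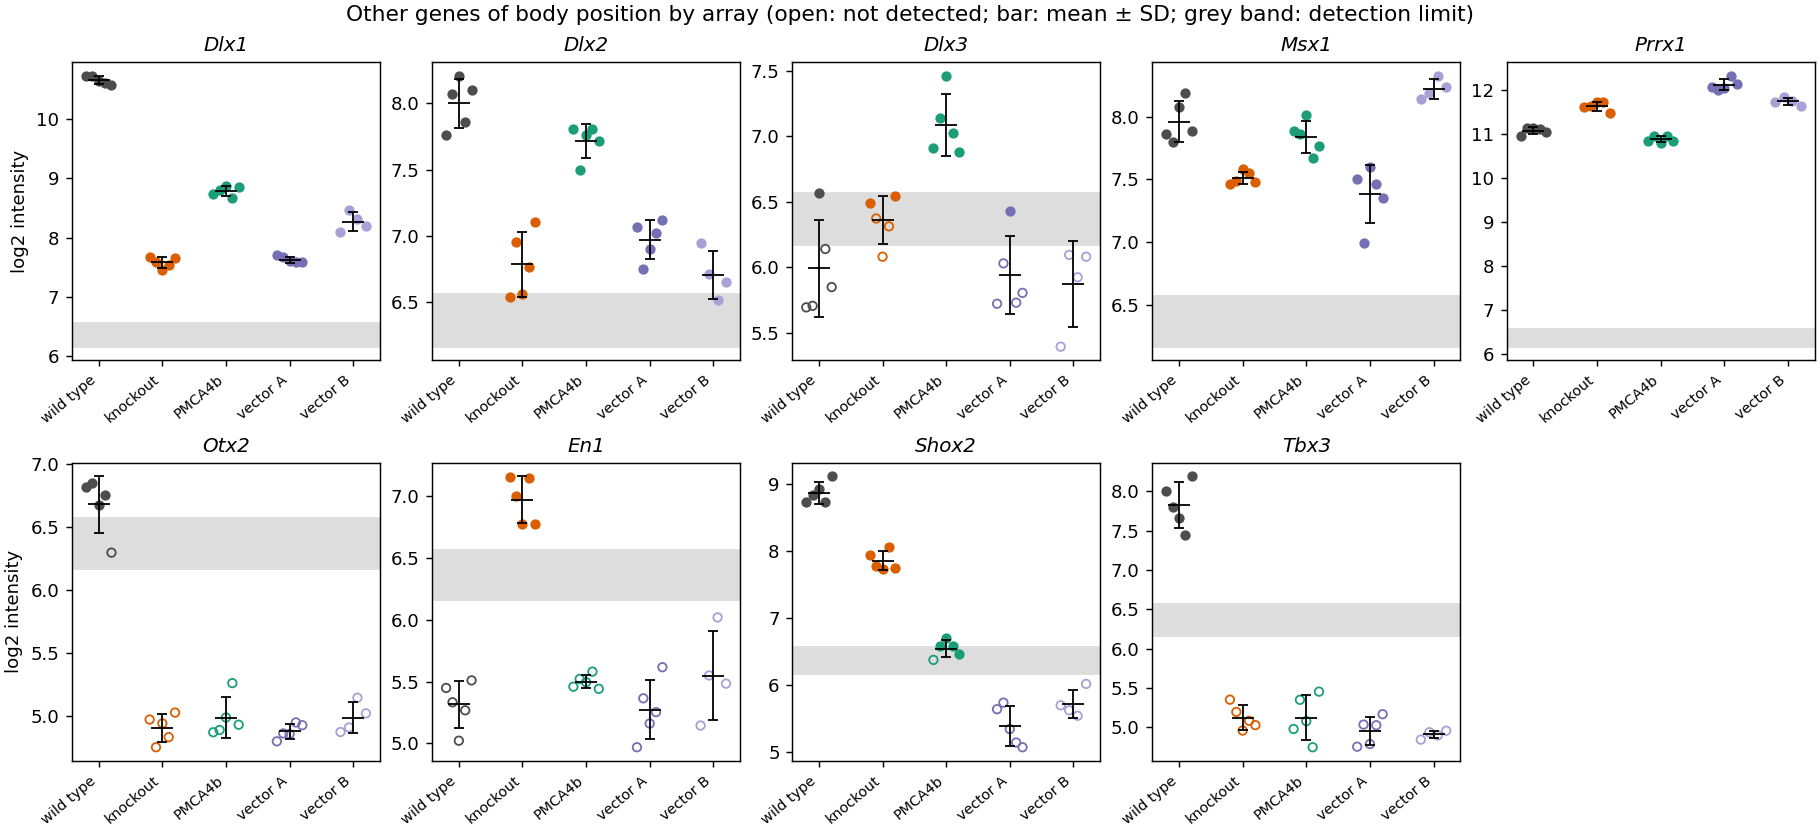
Log2 intensity of the tested homeobox and T-box genes of body position on each array, by group, with bars for the mean ± SD; open points are arrays without detection, and the grey band spans the arrays' lowest detected values. Tbx3 and Otx2 are raised in wild type only and En1 in knockout only, while Dlx1 is highest in wild type and lies between 7.58 and 8.78 in the means of the other groups.

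PMCA4b cells lay between wild type and the vector groups for Dlx1, at 8.78 ± 0.0858 (SD, n = 5), and were 1.78-fold above the vector average (limma adjusted p = 1.26e-12). Shox2, a limb and heart pacemaker gene, was at least 1.16-fold higher with PMCA4b than with vector (limma adjusted p = 5.67e-09). Prrx1, a marker of limb and head mesenchyme, was 2.08-fold lower (limma adjusted p = 1.2e-14). In all, 4 of the 9 were higher with PMCA4b and 1 lower, against 38.3% and 40.5% of all genes. Tbx3, Otx2 and En1 were detected on no PMCA4b or vector array.

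Among the TALE cofactors, 9 genes were on the array and 8 were tested. Knockout had 2 higher and 3 lower than wild type, and PMCA4b had 2 higher and 4 lower than the vector average. Over all genes 57.7% and 78.8% were called in these comparisons, so both counts were near the background. The Meis1 means had the same order of groups as those of Hoxa2, whose steps from knockout to vector B and from vector A to PMCA4b did not pass the test. How many other genes share this order was not examined. Meis1 averaged 10.59 ± 0.0960 in wild type, followed by 9.84 ± 0.136 for knockout, 9.75 ± 0.119 for vector B, 9.38 ± 0.0726 for vector A and 9.07 ± 0.0470 for PMCA4b (SD, n = 4 for vector B and 5 for the rest). It was 1.68-fold lower in knockout than in wild type (limma adjusted p = 5.8e-10) and 1.41-fold lower with PMCA4b than with vector (limma adjusted p = 3.07e-08). Pbx2 was at least 1.41-fold lower in knockout (limma adjusted p = 0.00141).

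Pknox2 was detected on no wild-type and no PMCA4b array, on 4 of 5 knockout arrays and on all 9 vector arrays. Its wild-type arrays lay between 5.06 and 5.64 and its PMCA4b arrays between 4.93 and 5.10. The vector arrays lay between 7.14 and 7.52. It was at least 1.75-fold lower with PMCA4b than with vector (limma adjusted p = 3.26e-15) and at least 1.11-fold higher in knockout than in wild type (limma adjusted p = 9.49e-09). Meis2 was 1.54-fold lower with PMCA4b than with vector (limma adjusted p = 1.5e-10).

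**Figure D5:**
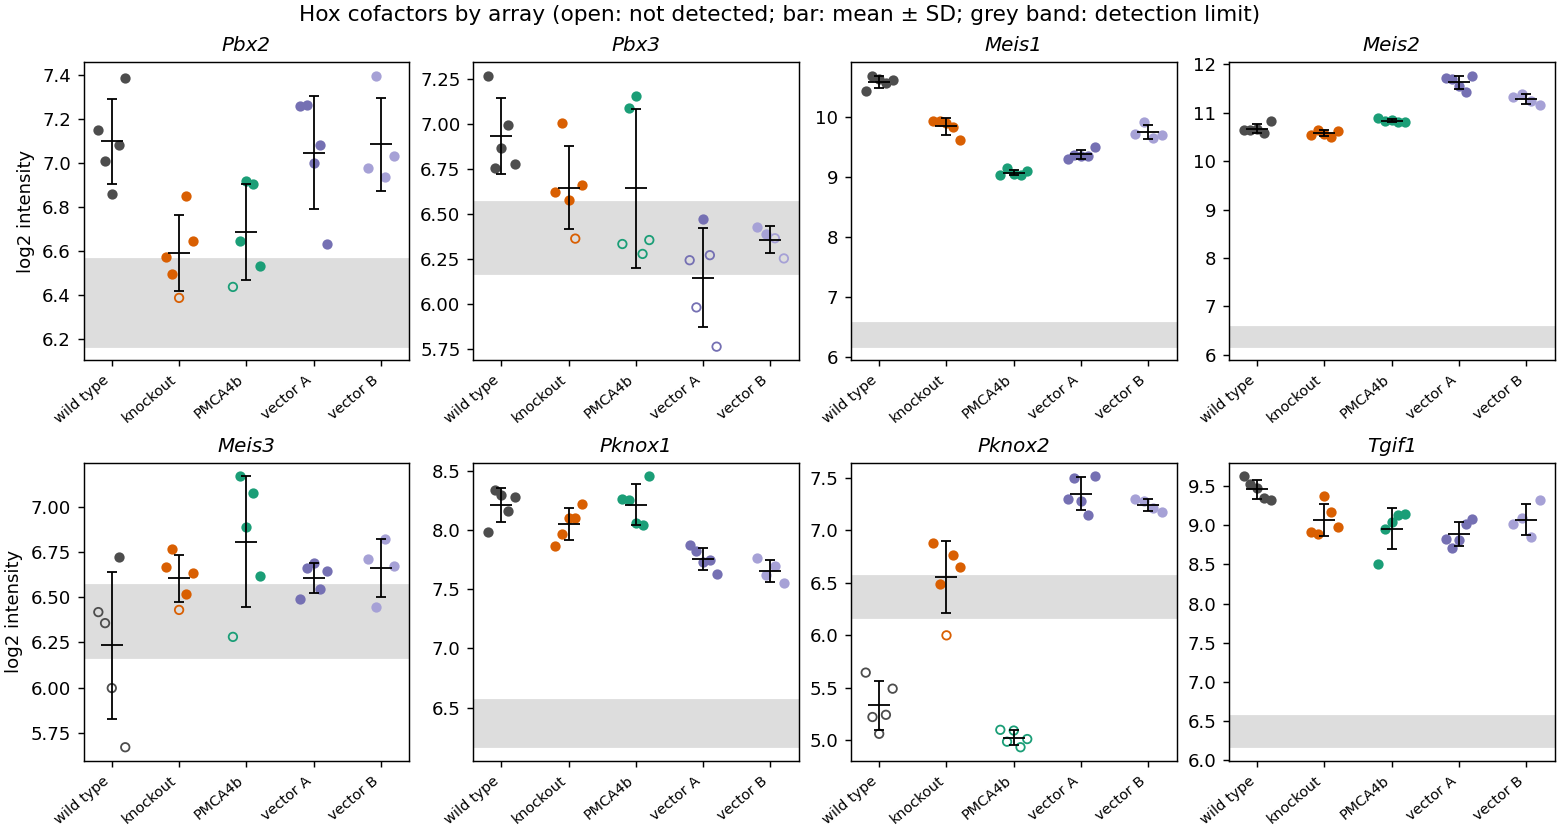
Log2 intensity of the 8 tested TALE cofactors on each array, by group, with bars for the mean ± SD; open points are arrays without detection, and the grey band spans the arrays' lowest detected values. Meis1 is highest in wild type and lowest in PMCA4b, and Pknox2 lies above the band on the 9 vector arrays and below it on all wild-type and PMCA4b arrays.

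The chromatin regulators of the clusters had median absolute differences of 0.28 (Polycomb) and 0.23 (Trithorax type) in knockout against wild type. Of 21 Polycomb genes on the array 16 were tested, of which 1 was higher and 7 were lower in knockout than in wild type, against 26.6% and 31.1% of all genes. None reached 2-fold; Suz12, a core subunit of Polycomb repressive complex PRC2, was 1.36-fold lower (limma adjusted p = 2.4e-07), and Phc1 and Phc2, subunits of PRC1, were 1.51-fold and 1.24-fold lower (limma adjusted p = 9.23e-07 and 2.34e-05). With PMCA4b 10 were higher and 3 lower than with vector, against 38.3% and 40.5% of all genes, among them Ezh2, the PRC2 methyltransferase, 1.66-fold higher (limma adjusted p = 2.11e-09), Rbbp7 2.94-fold higher (limma adjusted p = 3.4e-15), and Cbx7, a PRC1 subunit, at least 1.28-fold lower (limma adjusted p = 1.64e-10). Cbx7 was detected on vector arrays alone and passed the filter through them, so its difference from PMCA4b was built into its selection. Cbx2, among the 7 lower in knockout, passed only with its 2 wild-type detections and was detected on no knockout array. Pcgf2, among the 10 higher with PMCA4b, passed only with its 2 PMCA4b detections and was detected on no vector array. These 2 calls were thus built in part into the selection as well. All 10 Trithorax-type genes on the array were tested; 1 was higher and 6 were lower in knockout than in wild type, and 7 were higher and 1 lower with PMCA4b than with vector. Over all genes 57.7% and 78.8% were called in these comparisons. Psip1, which binds chromatin with the MLL complex, was 1.51-fold lower in knockout (limma adjusted p = 1.92e-11) and 1.97-fold higher with PMCA4b (limma adjusted p = 4.08e-17). Wdr5, a shared subunit of these methyltransferases, was 1.44-fold lower and 1.82-fold higher in the same comparisons (limma adjusted p = 1.45e-05 and 3.09e-10). Ash2l was 1.38-fold lower in knockout (limma adjusted p = 4.45e-06) and Rbbp5 1.68-fold higher with PMCA4b (limma adjusted p = 2.3e-11).

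Of 18 genes listed around the induction of Hox clusters in the embryo, mostly retinoic acid, Cdx and related genes, 8 were tested. The list mixes enzymes, binding proteins and receptors of retinoic acid, so its counts do not measure induction. In knockout 2 of the 8 were higher and 4 lower than in wild type, where 57.7% of all genes were called. One of the 4, Rarb, was detected on no array of either group. Crabp1, a retinoic acid binding protein, read 5.70, 6.16, 6.54, 6.31 and 6.39 in wild type and 10.73, 10.48, 10.52, 10.46 and 10.60 in knockout. The PMCA4b arrays read 10.38, 10.28, 10.44, 10.36 and 10.22, vector A arrays 5.84, 5.41, 5.52, 5.45 and 5.56, and vector B arrays 7.91, 7.76, 7.80 and 7.90. Knockout and PMCA4b were thus far above wild type and both vector groups. Crabp1 was at least 17.2-fold higher in knockout than in wild type (limma adjusted p = 3.31e-20) and at least 9.43-fold higher with PMCA4b than with vector (limma adjusted p = 3.62e-20).

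Aldh1a1, which makes retinoic acid, had another order: its mean was 4.71 in wild type, 7.36 in knockout, 5.99 with PMCA4b, 9.71 with vector A and 8.52 with vector B. No wild-type and no PMCA4b array detected Aldh1a1, so those groups cannot be ranked against each other. It was at least 1.93-fold higher in knockout than in wild type (limma adjusted p = 4.57e-15) and at least 6.19-fold lower with PMCA4b than with vector (limma adjusted p = 5.32e-18). Aldh1a2, a further enzyme of this step, was at least 1.59-fold lower with PMCA4b than with vector (limma adjusted p = 9.94e-12). Rarg, a retinoic acid receptor, was 1.29-fold lower in knockout (limma adjusted p = 0.000553). With PMCA4b 2 of the 8 were higher and 6 lower than with vector, where 78.8% of all genes were called. Among those 6, Rarb was detected on all vector A arrays and on no other array, vector B included. It passed the filter through vector A alone, so its lower value with PMCA4b was built into its selection.

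Genes that flank the Hox clusters were compared in the same way. Of 21 on the array 14 were tested, and in knockout against wild type 2 were higher and 3 lower, where 57.7% of all genes were called; none was called by at least 2-fold, as 6.64% of all genes were. Skap2, which flanks the head end of HoxA, differed by 0.12 in that comparison and was not called, whereas Snx10 beyond it was 1.81-fold lower (limma adjusted p = 3.09e-11), and Hibadh, on the tail side, was 1.17-fold higher (limma adjusted p = 0.000596). Atf2, near HoxD, was 1.23-fold lower (limma adjusted p = 0.000181). With PMCA4b 7 were higher and 6 lower than with vector, against 38.3% and 40.5% of all genes, 6 of them by at least 2-fold, where 16.7% of all genes were called by that much. Among those 6, Calcoco1 was detected on vector arrays alone, so its lower value with PMCA4b was built into its selection. Skap2 and Snx10 were 2.87-fold and 2.77-fold lower (limma adjusted p = 7.24e-18 and 2.62e-17), and Nfe2l1, near HoxB, was 3.28-fold lower (limma adjusted p = 1.44e-18).

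Of 10 neural crest regulators on the array 6 were tested, and in knockout 2 were higher and 3 lower than in wild type, where 57.7% of all genes were called. Tfap2b, an AP-2 factor of neural crest, averaged 10.58 ± 0.108 on wild-type arrays and 8.57 ± 0.0671 on knockout arrays (SD, 5 each), 4.01-fold lower (limma adjusted p = 3.88e-18), and was detected on no array of the electroporated groups. Tfap2a, its paralogue, moved the other way, at least 4.81-fold higher in knockout (limma adjusted p = 6.68e-16), and was likewise undetected in the electroporated groups. Tfap2a was detected on 3 wild-type arrays, too few for the filter without knockout, so this difference was built in part into its selection. Ets1 was 1.68-fold lower in knockout (limma adjusted p = 4.71e-11) and 1.68-fold higher with PMCA4b than with vector (limma adjusted p = 1.23e-12). Twist1 and Sox9 were 1.89-fold and 1.71-fold lower with PMCA4b than with vector (limma adjusted p = 5.73e-13 and 1.44e-12), and 2 of the 6 were higher and 2 lower there, where 78.8% of all genes were called. Foxd3, Pax3 and Hand1 were detected on no array.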

How the data were processed

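The members, the gene lists and the tests were chosen with earlier results of these data known. The deposited intensities were background-subtracted but not brought to a common scale across arrays; on each array 28.28% to 30.86% of them were negative. The deposited detection p-values stand beside each intensity. The authors' deposited log2 values have 1 median of 6.24 on every array and rank each array's probes as its intensities do (Spearman 1, against at most 0.961 with another array); they were used as an alternative. No source used here names the background method or the scanner software.

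Intensities were background-corrected and quantile-normalized by the neqc function (offset 16; limma 3.58.1 under R 4.3.3, with package data.table at version 1.17.8). The filter asked for 4 or more arrays with a detection p under 0.01 and kept 11139 probes. The named probe with the highest mean stood for its gene. The platform annotation, with a single symbol for 23978 probes, named the genes; chromosomes and neighbours came from a RefSeq table of GRCm38.p6. Limma was fitted to all 24 arrays with 5 group means as coefficients (19 residual degrees of freedom), tests were two-sided, and genes were called at a Benjamini-Hochberg adjusted p under 0.05. Where an array of the dimmer group did not detect a probe, the fold is a lower bound. A bound uses the higher of the probe's value and the array's lowest detected value, which lay between 6.17 and 6.57.

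The text names all Hox genes of the array, gives those detected on every array of a group with values, and names from each other list the 3 called genes with the smallest adjusted p in knockout against wild type and in PMCA4b against the vector average. Dlx2, En1, Cdx and Skap2 in knockout against wild type, Hoxb7, Hoxa3, Hoxc6 and the 3 promoters were chosen after their values were seen. The lists for TALE cofactors, Polycomb, Trithorax, Hox induction, body position, cluster neighbours, neural crest and the 4 marker lists were described by counts with no set test. For figures, matplotlib 3.10.9 and pandas 2.3.3 were used in Python 3.11.15. The pipeline was tested on simulated data. Alternatives were other detection filters, offset and scaling, the authors' log2 values, each probe on its own, array weights, blocks and leaving out each array. The replicate numbers were not used to pair the samples in the main fit, as the labels state no pairing. Deviations of same-numbered arrays of different groups correlated between -0.0426 and 0.475 over 46 pairs, with a median of 0.0382. For differently numbered arrays the range was -0.225 to 0.1325 over 184 pairs, with a median of -0.005. These ranges overlap and do not settle whether samples with the same number belong together.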

Additional observations from a re-analysis of the deposited data

Results flagged for a closer look

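Over 40 sets of values (8 Hox genes in 5 groups), 2 held an array far from the others of its group, and chance alone flags about 1 group in 20. Both were knockout replicate 5: its Hoxa7 value of 8.46 was the lowest of the group, and its Hoxa13 value of 7.12 the highest.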

How the results depend on the processing

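With the column set as a block, 2 Hox genes were called between vector B and vector A in place of 7, and there Hoxa13 turned from -0.31 to 0.12 and Hoxb5 from 0.25 to -0.26. No filter on detection raised the calls of PMCA4b against wild type from 3 to 5. It added Hoxb7 (1.065, limma adjusted p = 4.22e-11), Hoxa3 (0.579, limma adjusted p = 0.000873) and Hoxd3 in knockout against wild type. Hoxb7 and Hoxa3 were also called lower in the vector average and in PMCA4b than in knockout. Hoxc6 was called higher in each comparison of PMCA4b. Hoxd10, Hoxd11 and Hoxd13 were called between the vector groups. All of these lay near or below the detection limit. Median scaling turned Hoxa13 in the vector average against knockout from -0.04 to 0.04, and leaving out each array in turn gave -0.064 to 0.035; the same gave -0.011 to 0.186 for Hoxb4 in PMCA4b against knockout, with 0.09 over all arrays. Without each array in turn, 4 to 6 Hox genes were called in knockout against wild type, 7 in each case in the vector average against knockout, 5 to 7 in vector B against vector A, 6 to 7 in PMCA4b against the vector average, 5 to 6 in PMCA4b against knockout and 3 to 4 in PMCA4b against wild type. With the replicate number as a block the counts were 6, 7, 6, 7, 6 and 4 in that order, and the block added Hoxa5 in knockout against wild type (adjusted p = 0.0459). The cause was not tested. Over the values of single genes under all alternatives, the extremes of leaving out each array included, 584 kept their direction and side of the threshold, 46 lost their call, 19 gained one and 5 reversed. No scaling moved the median of all genes by more than 0.052. Hoxa4 and Hoxa13 in wild type and Hoxb5 outside knockout lay near or under the detection limit, which bounds what their differences show.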
